A study of Mus musculus with 35 samples.

Results

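The cell cycle and replication genes described here are 38 mouse genes chosen by name. They comprise 12 genes of DNA replication, 18 genes of mitosis, 6 cyclins and cyclin-dependent kinases of the G1 phase, and 2 inhibitors of those kinases. Of the 18193 genes that the array's annotation names, 37 were among these members, and Ccnb1 was not analysed here. Each gene was read from its brightest probe set. A filter on dim genes, set at the 40th percentile of the mean log2 signal of all probe sets over the 35 arrays, kept 13004 genes for testing and 28 of the 37 members. The 9 dim members were Tyms, Cdc6, Ccne2, Bub1, Aurka, Aurkb, Birc5, Cenpa and Kif11.

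The kidneys came from FVB/NJ mice that were diabetic or served as controls, in groups of 6 diabetic and 6 control arrays aged 2 months, 7 diabetic and 4 control arrays aged 4 months, and 6 of each aged 8 months. The series' title names OVE26, a transgenic line whose pancreatic beta cells overproduce calmodulin and fail to supply insulin; the transgene is directed to those cells, and no other allele or agent is given for either group. The labels number the arrays within each group without saying that each came from its own animal, so the p-values measure the spread between these samples, which may be technical. All levels are deposited log2 signals, on which a difference of 1 is 2-fold, and a level is compared between arrays, never between genes. The 9 measured genes that define kidney cell types, among them Umod, Lrp2 and Slc12a1, had a mean log2 level of 11.63 to 12.52 on every array. In RNA of a whole organ, more cycling cells and more RNA of these genes per cell cannot be told apart.

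At 2 months arrays 5 and 6 of both groups stood apart from arrays 1 to 4 on the first principal component of all tested genes (9.32 to 36.62 against -14.09 to -7.18), and at 4 months control arrays 3 and 4 did (18.01 and 18.64 against -13.13 to 6.24 on the other 9). The labels do not say why, and the values of the clock genes Arntl and Dbp on these arrays are given below. Counts of members called at those ages are given with and without these arrays beside the results.

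The adult kidney is a slowly renewing organ in which few cells divide at a time, and tubule cells can re-enter the cycle after injury. Cyclin D with Cdk4, and then cyclin E with Cdk2, inactivate the retinoblastoma family and release E2F factors, which switch on the genes of replication. The Mcm proteins are loaded as a helicase on replication origins, Pcna clamps the polymerase to DNA, and ribonucleotide reductase (Rrm1 and Rrm2) supplies deoxynucleotides. Cyclin A and cyclin B with Cdk1 then drive the cell into mitosis, whose genes are held silent in resting cells by the DREAM complex through a promoter element called the CHR.

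The stretches ahead of 5 members are shown because these genes, 2 of replication and 3 of mitosis, had the largest 8-month differences among the tested members of their role, and because they show the E2F and CHR letters of the background. The windows are RefSeq sequence on build GRCm38.p6, from 250 bases before to 50 bases after the annotated start, and 32 of the 38 members had at least 1, giving 35 windows. Ccnd2, Ccna2, Ccne2, Mcm4, Aurkb and Ccnd1 had none. Only bases ahead of the start are printed, 5′ to 3′ on the gene's strand. Capitals mark E2F letters (TTTCGCGC or TTTGGCGC) and CHR letters (TTTGAA), each on either strand. Where 2 matches overlap, as in the first capitals of Mcm6 and those of Mcm5, they run together.
Mcm6, chr1:128359706-128359905, minus strand: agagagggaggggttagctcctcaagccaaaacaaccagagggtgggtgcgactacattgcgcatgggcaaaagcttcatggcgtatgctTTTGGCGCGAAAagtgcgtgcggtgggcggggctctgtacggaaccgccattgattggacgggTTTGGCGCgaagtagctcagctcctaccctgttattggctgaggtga
Mcm5, chr8:75109309-75109467, plus strand: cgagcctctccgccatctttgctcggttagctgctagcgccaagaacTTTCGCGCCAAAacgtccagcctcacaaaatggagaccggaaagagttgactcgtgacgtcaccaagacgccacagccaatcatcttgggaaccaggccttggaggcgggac
Mki67, chr7:135716451-135716579, minus strand: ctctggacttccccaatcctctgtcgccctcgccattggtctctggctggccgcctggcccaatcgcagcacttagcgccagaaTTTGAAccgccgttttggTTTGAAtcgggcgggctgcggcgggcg
Cdk1, chr10:69352913-69353112, minus strand: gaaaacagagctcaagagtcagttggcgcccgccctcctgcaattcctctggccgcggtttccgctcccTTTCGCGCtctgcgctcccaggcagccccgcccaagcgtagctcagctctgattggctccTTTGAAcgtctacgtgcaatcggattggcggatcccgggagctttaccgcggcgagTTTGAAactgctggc
Top2a, chr11:99024200-99024389, minus strand: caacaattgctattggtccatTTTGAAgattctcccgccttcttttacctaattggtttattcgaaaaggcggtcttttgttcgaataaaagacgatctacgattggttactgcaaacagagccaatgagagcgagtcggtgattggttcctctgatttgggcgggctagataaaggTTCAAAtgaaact

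E2F letters stood in 4 of the 12 replication windows (Mcm3, Mcm5, Mcm6 and Mcm7) and in 1 of the 17 mitotic windows (Cdk1), against 0.813% of all 32851 windows of the same length. CHR letters stood in 13 of the 17 mitotic windows, from 12 of 16 mitotic genes, and in 1 of the 12 replication windows (Mcm2), against 17.9% of all windows. The letters CCAAT, on either strand, stood in 9 of 12 replication and 15 of 17 mitotic windows, against 37.4% of all. The 2 replication promoters printed above hold E2F letters and no CHR letters. Mki67 and Top2a hold CHR letters alone, and Cdk1 holds both. These matches describe the letters in the windows and not binding.

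The members that passed the test at 8 months were all higher in diabetic kidneys, and most were replication genes. At 2 and 4 months no member passed. The calls do not show a larger difference in replication genes, since the 8-month median was 0.43 in them and 0.51 in mitotic genes. A member was called when its adjusted p, from limma with Benjamini-Hochberg adjustment over all 13004 genes, was under 0.05. At 8 months 9 of the 28 tested members were higher and 0 were lower (20 higher and 0 lower at an unadjusted p under 0.05). Over all tested genes 9.87% were called higher and 6.95% lower at that age, and 16.2% and 12.4% at an unadjusted p under 0.05. At 2 months 0 members were called, against 0.754% of all genes higher and 1.78% lower. At an unadjusted p under 0.05, 2 members (Mcm6 and Ccnd1) were higher and 0 lower at 2 months, against 5.54% and 9.70% of all genes. At 4 months 0 members were called, against 0.415% higher and 0.554% lower. At an unadjusted p under 0.05, 4 members (Mcm6, Mad2l1, Cdk4 and Ccnd1) were higher and 0 lower at 4 months, against 5.58% and 5.78% of all genes. The count stayed at 0 in the 2-month arrays 1 to 4 alone, in arrays 5 and 6 alone and without the 4-month control arrays 3 and 4, and it was 1 (Ccnd1, adjusted p = 0.0400) with a term for the 2-month arrays 5 and 6. The median difference over the 28 members was 0.12, 0.27 and 0.40 at the ages of 2, 4 and 8 months, and the median over all tested genes was -0.01, 0.01 and 0.00. The difference lay above 0 in 22, 27 and 25 of the 28 members at the 3 ages, and in 45.8%, 53.5% and 49.9% of all genes.

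**Figure D1:**
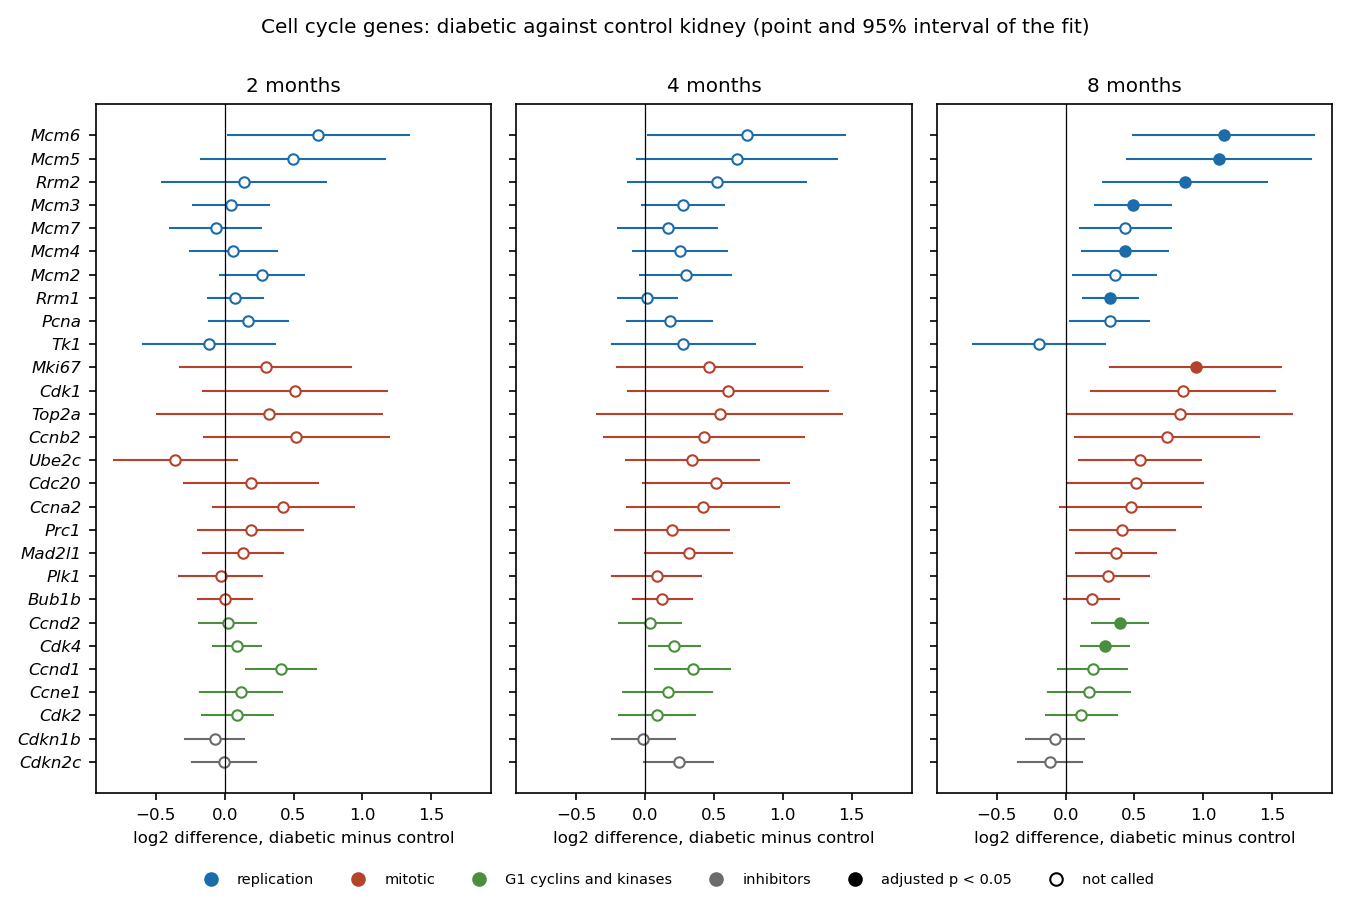
Log2 difference of diabetic from control arrays at 2, 4 and 8 months (horizontal axes) for the 28 tested members (rows), coloured by role; points are the fitted difference, lines its 95% interval, and filled points passed an adjusted p of 0.05. Filled points appear at 8 months alone, in 6 replication genes, Mki67, Ccnd2 and Cdk4.

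Among the replication genes, 6 of the 10 tested were called higher at 8 months, against 9.87% of all genes. Mcm6 and Mcm5 had the largest differences of all members at that age. Mcm6, a subunit of the replicative helicase, stood at 5.45, 5.29, 5.44, 5.67, 6.82 and 6.10 on control arrays 1 to 6 and at 6.64, 7.50, 7.76, 6.48, 5.72 and 7.55 on diabetic arrays 1 to 6. The groups overlapped, since control array 5 lay above 3 of the diabetic arrays and diabetic array 5 lay within the control range. The mean was 5.79 ± 0.57 (SD, n = 6) in controls and 6.94 ± 0.79 (SD, n = 6) in diabetic kidneys, a difference of 1.15 ± 0.32 (SE), or 2.22-fold, with an adjusted p of 0.0116.

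Mcm5 encodes another helicase subunit. Its controls stood at 6.03, 6.06, 6.04, 6.32, 7.55 and 6.86, and its diabetic arrays at 7.05, 7.99, 8.37, 7.22, 6.56 and 8.39. Control array 5 again exceeded diabetic arrays 1, 4 and 5. The difference was 1.11 ± 0.33, or 2.16-fold, with an adjusted p of 0.0164 and all 6 diabetic arrays above the control mean. Rrm2, the regulated subunit of ribonucleotide reductase, had controls at 7.17, 7.08, 7.05, 7.04, 8.58 and 7.78 and diabetic arrays at 8.09, 8.88, 8.99, 7.67, 7.65 and 8.62. Control array 5 lay above 3 diabetic arrays here as well. The difference of 0.87 ± 0.29, or 1.82-fold, had an adjusted p of 0.0376. Rrm2 was not called without diabetic array 2, 3 or 6, without any of control arrays 1 to 4, or in the 8-month arrays alone (adjusted p of 0.0652 to 0.114), and Mcm5 was not called without diabetic array 3 (0.0588) or 6 (0.0504).

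Mcm3, a further helicase subunit, had the smallest p of the replication genes. Its controls lay close together, at 5.71, 5.72, 5.71, 5.69, 6.02 and 5.76, and its diabetic arrays at 6.11, 6.44, 6.65, 5.92, 5.89 and 6.54. Only control array 5 reached into the diabetic range, above diabetic arrays 4 and 5. The difference was 0.49 ± 0.14, or 1.40-fold (adjusted p = 0.0099).

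The remaining called replication genes were Mcm4, a helicase subunit, and Rrm1, the large subunit of ribonucleotide reductase. Mcm4 ranged from 7.10 to 7.44 in controls (median 7.20) and from 7.24 to 8.34 in diabetic kidneys (median 7.62), with 4 of 6 diabetic arrays above every control. Its difference was 0.43 ± 0.15, with an adjusted p of 0.0492, and the call was lost in 13 of the 19 alternatives run, with adjusted p of up to 0.193. These were both quantile normalizations, no filter, the mean of all probe sets, the replicate block, the 8-month arrays alone and 7 of the 12 omissions of 1 array (diabetic arrays 2, 3 and 6 and control arrays 1 to 4). Rrm1 ranged from 7.22 to 7.76 in controls (median 7.36) and from 7.45 to 7.95 in diabetic kidneys (median 7.70). The highest control value was that of array 5, and 3 diabetic arrays exceeded it. The Rrm1 difference was 0.33 ± 0.10, with an adjusted p of 0.0177, and it was not called without diabetic array 3 (0.0615) or control array 3 (0.0525).

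Mcm2, Mcm7 and Pcna did not pass at 8 months. Mcm2, the helicase subunit often stained as a mark of licensed cells, stood at 7.45, 7.30, 7.31, 7.30, 7.57 and 7.59 in controls and at 7.51, 7.87, 8.06, 7.46, 7.63 and 8.13 in diabetic kidneys. Diabetic arrays 1 and 4 lay inside the control range. The difference was 0.36 (95% interval 0.06 to 0.66; adjusted p = 0.0989). Pcna stood at 10.59, 10.61, 10.46, 10.44, 10.85 and 10.69 in controls and at 10.84, 11.11, 11.24, 10.72, 10.64 and 11.02 in diabetic kidneys. All 6 diabetic arrays lay above the control mean and 3 above every control, and the difference of 0.32 (0.03 to 0.60) had an adjusted p of 0.124. Mcm7 differed by 0.43 (0.10 to 0.77; adjusted p = 0.0651). Tk1, the thymidine salvage kinase, was the only tested replication gene below 0 at 8 months, at -0.20 (-0.67 to 0.28), and diabetic array 5, at 5.76, was far under the other 11 arrays of that age, which lay at 6.89 to 7.59. The dim members Cdc6, the helicase loader, and Tyms, thymidylate synthase, differed by 0.35 ± 0.24 and -0.01 ± 0.12 when no filter was used.

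At 2 months Mcm6 was the only member whose groups did not overlap, against 0.538% of all genes with every diabetic array above every control. Its controls stood at 5.84, 6.25, 5.95, 5.98, 5.64 and 6.26, and its diabetic arrays at 7.00, 6.63, 6.55, 6.32, 6.75 and 6.75. The highest control and the lowest diabetic array were 6.26 and 6.32. The difference of 0.68 ± 0.32 (0.02 to 1.34) was not called in the shared fit (adjusted p = 0.310). It had an adjusted p of 0.0270 when the 12 arrays of 2 months were fitted alone. Mcm5 differed by 0.50 (-0.17 to 1.17) and Mcm2 by 0.27 (-0.03 to 0.57) at that age, and the other tested replication genes lay between -0.12 (Tk1) and 0.17 (Pcna).

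At 4 months no replication gene was called, and diabetic array 3 lay far above the other arrays in most of them. Mcm6 stood at 5.30, 5.27, 5.25 and 5.39 on the control arrays and at 5.28, 5.80, 7.84, 6.33, 5.19, 5.45 and 6.36 on the diabetic arrays. Mcm5 stood at 6.77, 6.63, 6.43 and 6.81, and at 6.41, 7.04, 9.12, 7.77, 6.49, 6.92 and 7.56. In both genes diabetic arrays 3, 4 and 7 were the highest of the 11 arrays and arrays 2 and 6 lay above the controls by less, while diabetic arrays 1 and 5 were within or under the control range. Of the 28 tested members, 0 had all diabetic arrays above all controls at 4 months, against 2.37% of all genes tested, and of the 9 dim members Aurkb did (difference 0.37 ± 0.18; adjusted p = 0.471 without the filter). Mcm2 had controls at 8.24, 8.12, 7.97 and 8.21 and diabetic arrays at 8.27, 8.09, 9.30, 8.46, 8.27, 8.13 and 8.46. Diabetic array 3 was again the highest of the 11 arrays. The differences were 0.74 ± 0.35 for Mcm6, 0.67 ± 0.36 for Mcm5 and 0.29 ± 0.16 for Mcm2, with adjusted p of 0.422, 0.505 and 0.524. Without diabetic array 3 the median over the 10 replication genes fell from 0.27 to 0.13, and over all 28 members from 0.27 to 0.17, while 27 members stayed above 0.

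**Figure D2:**
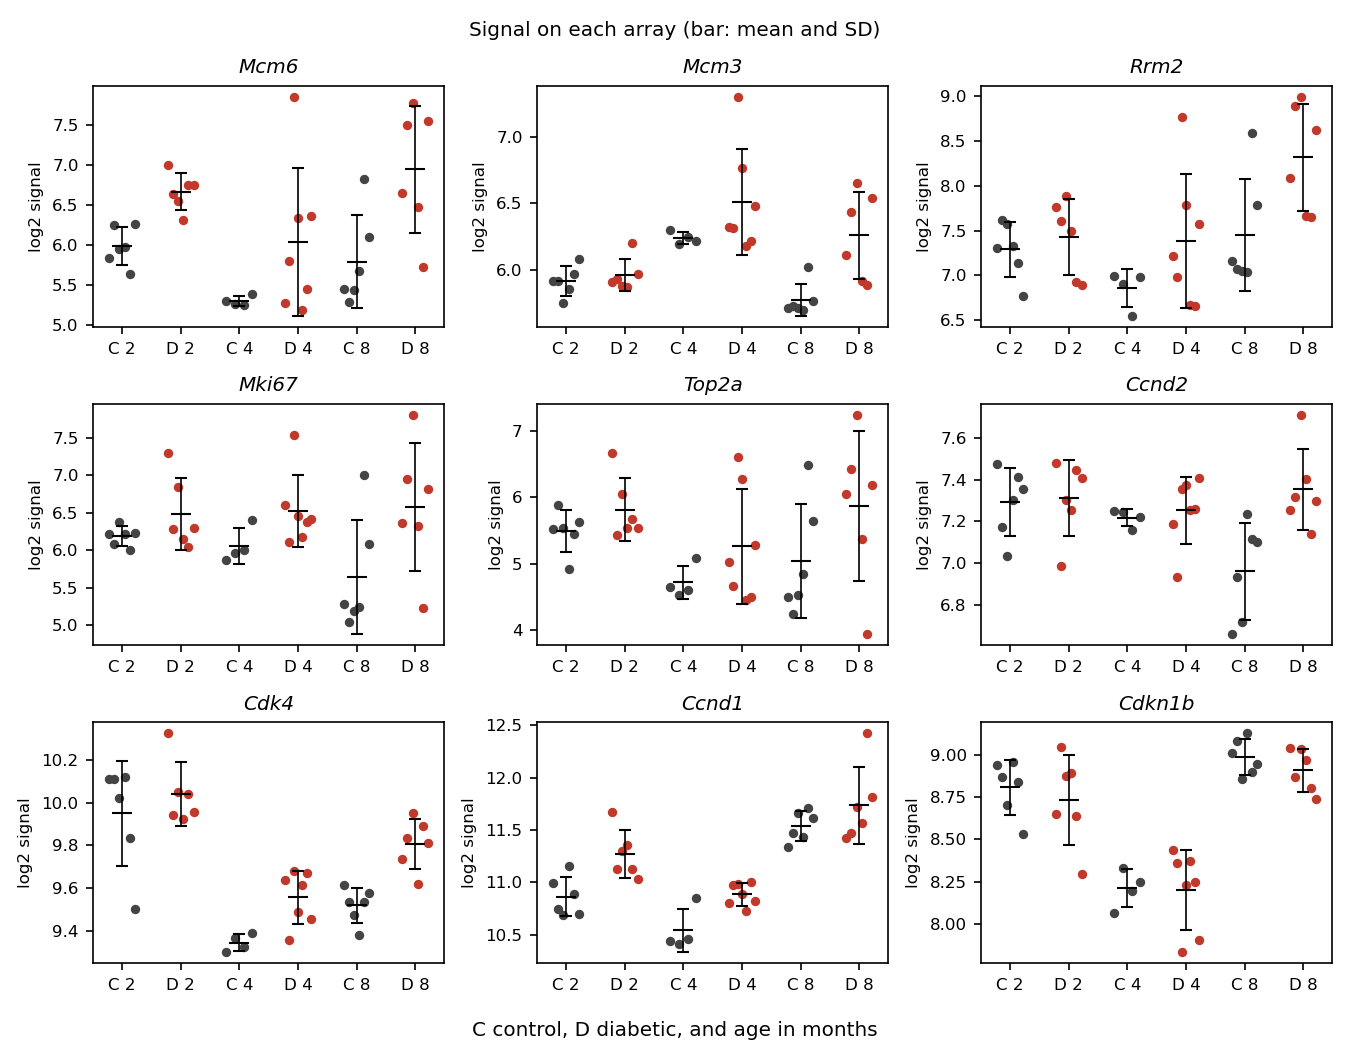
Log2 signal on each array (vertical axes, each with its own range) for 9 members in control (C, grey) and diabetic (D, red) kidneys at 2, 4 and 8 months; horizontal bars are the group mean and vertical bars the SD. Cdk4 at 8 months and Mcm6 at 2 months are the panels in which diabetic and control arrays of an age do not overlap.

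Of the 11 tested mitotic genes, 1 (Mki67) was called higher at 8 months, against 9.87% of all genes. The others, all above 0, did not pass. Mki67, which encodes the Ki-67 antigen of cycling cells, stood at 5.28, 5.04, 5.18, 5.24, 7.00 and 6.08 in controls and at 6.37, 6.95, 7.81, 6.32, 5.23 and 6.82 in diabetic kidneys. Control array 5 lay above all diabetic arrays except array 3, and diabetic array 5 lay among the lowest controls. The means were 5.64 ± 0.76 (SD, n = 6) and 6.58 ± 0.85 (SD, n = 6). The difference of 0.94 ± 0.31, or 1.92-fold, had an adjusted p of 0.0290. The SE rests on 1 spread per gene shared by all 6 groups, and the Mki67 SD was 0.13 to 0.48 at the younger ages. It therefore understates the spread of this gene at 8 months. The Mki67 call was lost in 9 of the 18 alternatives run, with adjusted p of up to 0.121, the value in the 8-month arrays alone.

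Top2a, the topoisomerase that untangles sister chromatids, showed a wider spread and was not called. Its controls stood at 4.50, 4.24, 4.52, 4.84, 6.49 and 5.64 and its diabetic arrays at 6.05, 6.43, 7.24, 5.37, 3.93 and 6.18. Diabetic array 5 was the lowest of the 12 arrays and control array 5 the second highest. The difference was 0.83 (0.01 to 1.65; adjusted p = 0.169). Cdk1, the mitotic kinase, differed by 0.85 (0.18 to 1.52; adjusted p = 0.0732), and Ccnb2, a cyclin partner of Cdk1, by 0.74 (0.07 to 1.41; adjusted p = 0.127).

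The other tested mitotic genes all lay above 0 at 8 months, between 0.19 and 0.54, and none was called. Ube2c, the ubiquitin-conjugating enzyme of the anaphase-promoting complex, was at 0.54, the activator of that complex Cdc20 at 0.51 and cyclin A2 (Ccna2) at 0.47. Prc1, which bundles the microtubules of the spindle midzone, was at 0.41, the spindle checkpoint genes Mad2l1 and Bub1b at 0.36 and 0.19, and the mitotic kinase Plk1 at 0.31. Of the dim mitotic members, Birc5, the survivin gene, differed by 0.81 ± 0.30 and the checkpoint kinase gene Bub1 by 0.48 ± 0.19, with adjusted p of 0.0779 and 0.0879 without the filter. Aurka and Aurkb, the Aurora kinases, were at 0.31 ± 0.20 and 0.20 ± 0.16. The centromeric histone gene Cenpa and the spindle motor gene Kif11 were at -0.04 ± 0.08 and 0.05 ± 0.09. Their other probe sets, dimmer still, were at 0.29 and -0.03 for Cenpa and at 0.18 and 0.24 for Kif11. Those of Bub1, Aurka and Aurkb were at 0.08, -0.09 and 0.23.

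At the younger ages the mitotic genes had medians of 0.19 (2 months) and 0.42 (4 months) with none called. Mki67 at 4 months stood at 5.87, 5.96, 6.00 and 6.41 in controls and at 6.60, 6.11, 7.54, 6.45, 6.17, 6.38 and 6.41 in diabetic kidneys, a difference of 0.47 (-0.21 to 1.14). All 7 diabetic arrays lay above the control mean, but control array 4 stood among them. Top2a at that age had controls at 4.65, 4.53, 4.61 and 5.09 and diabetic arrays at 5.03, 4.66, 6.61, 6.28, 4.45, 4.50 and 5.28, a difference of 0.54 (-0.35 to 1.43). Diabetic arrays 3 and 4 stood above the other 9 arrays of that age.

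At 2 months Mki67 stood at 6.22, 6.08, 6.38, 6.21, 6.00 and 6.23 in controls and at 7.29, 6.29, 6.84, 6.15, 6.05 and 6.30 in diabetic kidneys. Diabetic arrays 1 and 3 were above all controls and the rest were mixed with them, and the difference was 0.30 (-0.32 to 0.92). Top2a differed by 0.32 (-0.50 to 1.14) at 2 months, with the same diabetic arrays, 1 and 3, above every control. Ube2c was the member with the lowest 2-month difference, -0.36 (-0.81 to 0.09; adjusted p = 0.460), and its level on control array 6 was 6.75 while the remaining controls lay at 8.28 to 8.93. Without control array 6 the Ube2c difference was -0.66, with an adjusted p of 0.0113. That array also had the highest log2 ratio of 3′ to 5′ actin probe sets, 2.56 against 0.49 to 1.35 on the other 34 arrays, and the part of RNA quality in the Ube2c value was not tested.

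Of the 5 tested G1 genes, Cdk4 and Ccnd2 were called higher at 8 months, against 9.87% of all genes. Cdk4, the kinase partner of D cyclins, stood at 9.62, 9.53, 9.48, 9.38, 9.54 and 9.58 in controls and at 9.74, 9.84, 9.95, 9.62, 9.89 and 9.81 in diabetic kidneys. The groups did not overlap, although the margin between control array 1 and diabetic array 4 was smaller than the 2 decimals shown, and 5.41% of all genes had every diabetic array above every control. The difference was small, 0.29 ± 0.08, or 1.22-fold, with an adjusted p of 0.0162. Cdk4 was not called without diabetic array 3 (adjusted p = 0.0503). Ccnd2, the cyclin D2 gene, stood at 6.66, 6.93, 6.72, 7.23, 7.12 and 7.10 in controls and at 7.25, 7.32, 7.71, 7.40, 7.14 and 7.30 in diabetic kidneys. Only diabetic array 5 lay inside the control range. Its difference of 0.39 ± 0.10, or 1.31-fold, had the smallest adjusted p of all members, 0.0055.

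On its brightest probe set Ccnd1, the cyclin D1 gene, had its largest difference at the youngest age. At 2 months its controls stood at 10.99, 10.74, 10.69, 11.16, 10.89 and 10.70 and its diabetic arrays at 11.68, 11.13, 11.30, 11.35, 11.13 and 11.03. All 6 diabetic arrays lay above the control mean and 3 above every control. The difference was 0.41 ± 0.12, or 1.33-fold, with an adjusted p of 0.0671. With the replicate numbers of 2 months as a block, Ccnd1 passed, with the same difference and an adjusted p of 0.0197. At 4 months it differed by 0.34 ± 0.13 (adjusted p = 0.283), with all 7 diabetic arrays above the control mean and control array 4, at 10.85, apart from the other controls at 10.41 to 10.46. At 8 months it differed by 0.20 (-0.06 to 0.45, adjusted p = 0.312). Diabetic array 5, the lowest of its group for most members, had the highest Ccnd1, 12.43 against 11.43 to 11.82 on the other diabetic arrays. The other 2 Ccnd1 probe sets differed by 0.29, 0.33 and 0.28 and by 0.54, 0.34 and 0.40 at 2, 4 and 8 months. Neither was called at any age, and no change of the Ccnd1 difference between ages was called.

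Cdk4 at the younger ages differed by 0.09 (-0.08 to 0.26) at 2 months and by 0.21 (0.02 to 0.40; adjusted p = 0.362) at 4 months, when 6 of 7 diabetic arrays lay above every control. Cdk2, the kinase of the G1 to S transition, and its partner Ccne1, cyclin E1, differed by 0.11 (-0.14 to 0.37) and 0.17 (-0.13 to 0.47) at 8 months. The dim member Ccne2, cyclin E2, differed by 0.34 ± 0.18 at 8 months and by 0.51 ± 0.20 at 4 months, with adjusted p of 0.253 and 0.344 without the filter.

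The inhibitors showed no called difference at any age. Cdkn1b, which binds cyclin E and Cdk2 complexes, stood at 9.01, 9.08, 8.86, 9.13, 8.90 and 8.94 in 8-month controls and at 9.04, 8.87, 9.04, 8.97, 8.80 and 8.74 in diabetic kidneys. The groups overlapped throughout, and the difference was -0.08 (-0.29 to 0.14). It was -0.07 (-0.29 to 0.14) at 2 months and -0.01 (-0.24 to 0.22) at 4 months. Cdkn2c, an inhibitor of Cdk4 and Cdk6, differed by 0.00 (-0.24 to 0.23), 0.24 (-0.01 to 0.50) and -0.11 (-0.34 to 0.12) at the 3 ages. At 4 months 6 of its 7 diabetic arrays lay above every control.

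Set side by side, the replication and mitotic genes had similar median differences, and at 8 months the mitotic genes spread more widely within both groups. The youngest kidneys had medians of 0.11 (replication) and 0.19 (mitotic), the 4-month kidneys 0.27 and 0.42, and the 8-month kidneys 0.43 and 0.51. Replication minus mitotic was -0.08, -0.15 and -0.07 in this order of age. These medians are descriptions without a test. At 8 months 6 of 10 replication and 1 of 11 mitotic members were called higher, against 9.87% of all genes. At an unadjusted p under 0.05, 9 members of each role were higher, against 16.2% of all genes. The median SE of the difference was 0.16 for replication and 0.24 for mitotic members. It was the same at 2 months, since 1 spread per gene is shared by all groups. The median SD within the 8-month controls was 0.17 for replication members, 0.51 for mitotic members and 0.11 for all genes, and within the diabetic group it was 0.42, 0.69 and 0.16. The younger ages did not share one order. At 4 months the diabetic SD was 0.41 for replication, 0.36 for mitotic and 0.12 for all genes, and the control SD 0.12, 0.18 and 0.10. At 2 months the diabetic SD was 0.21, 0.29 and 0.18, and the control SD 0.22, 0.20 and 0.18.

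**Figure D3:**
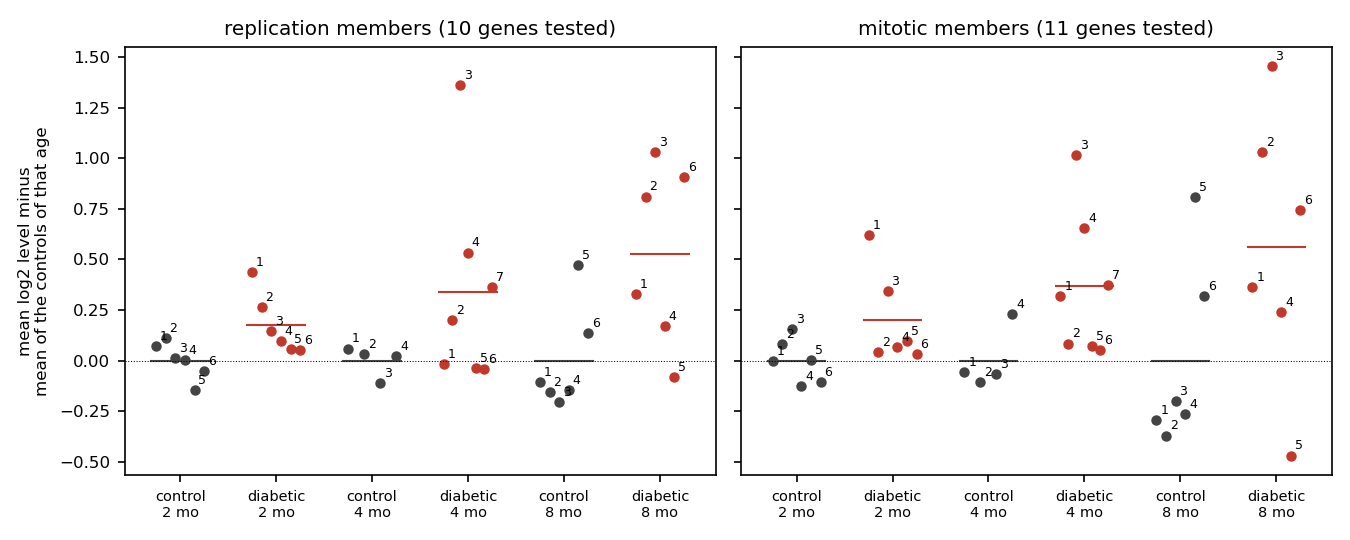
Mean log2 level over the 10 tested replication members (left) and the 11 tested mitotic members (right) on each array, minus the control mean of its age (vertical axis), with array numbers beside the points and group means as lines. At 8 months control array 5 stood above the other controls and diabetic array 5 below the other diabetic arrays in both panels; at 4 months diabetic array 3 was the highest.

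A few arrays were high or low across most members at once. At 8 months diabetic array 3 was the highest of its group in 22 of the 28 tested members and diabetic array 5 the lowest in 21, while control array 5 was the highest control in 19. At 4 months diabetic array 3 was the highest in 21, and control array 4 the highest control in 15. At 2 months diabetic array 1 was the highest in 19. Relative to the control mean of its age, the replication mean was 1.03 on diabetic array 3 of 8 months, -0.08 on diabetic array 5 and 0.47 on control array 5, and the mitotic mean was 1.45, -0.47 and 0.81. On diabetic array 3 of 4 months the means were 1.36 and 1.02, and on diabetic array 1 of 2 months 0.44 and 0.62.

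**Figure D4:**
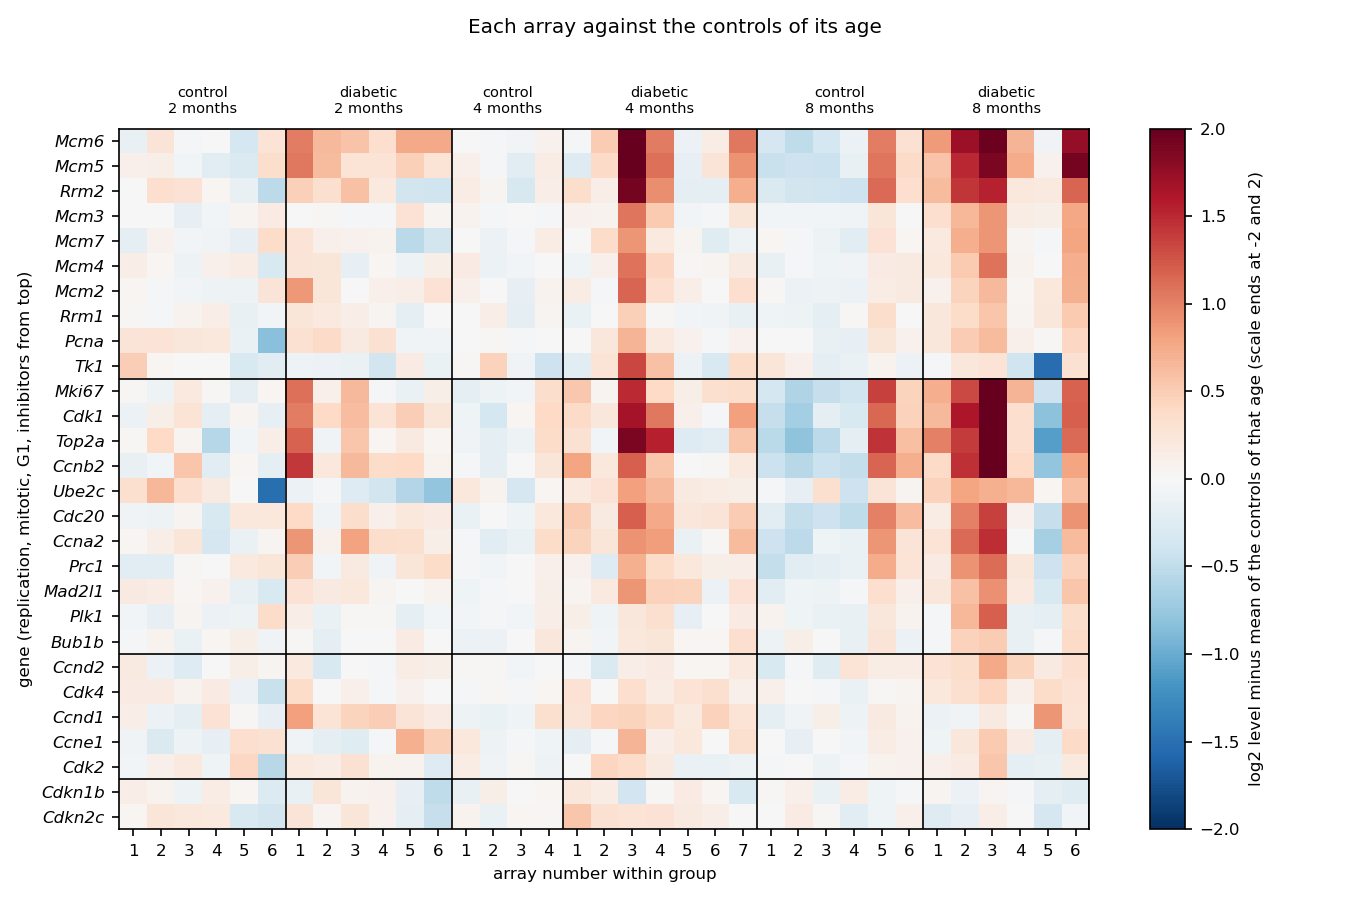
Log2 level minus the control mean of the age (colour, red above and blue below the controls) for the 28 tested members (rows, in blocks of replication, mitotic, G1 and inhibitor genes) on each of the 35 arrays (columns, by group and array number). Vertical bands appear at diabetic array 3 of 4 months, diabetic arrays 2, 3 and 6 of 8 months and control array 5 of 8 months, and run through the replication and mitotic blocks.

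The number of members called at 8 months changed when single arrays were left out. Without diabetic array 3, 3 members were called (Mcm3, Mcm6 and Ccnd2), and without diabetic array 5, 17, of which 8 were mitotic. Without control array 5, 16 were called, of which 7 were mitotic. Top2a passed without diabetic array 5 (1.22, adjusted p = 0.0203) and without control array 5 (1.12, adjusted p = 0.0475), as did Cdk1 (1.19, adjusted p = 0.0044, and 1.08, adjusted p = 0.0185). Without diabetic array 6 or without control array 3, 5 members were called, and without any of the other 7 arrays 6 to 10 were. The share of all genes called higher moved from 7.29% to 10.4% over the 12 omissions. Mki67 was not called without diabetic array 2, 3 or 6 or without any of control arrays 1 to 4, with adjusted p of 0.0554 to 0.121.

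**Figure D5:**
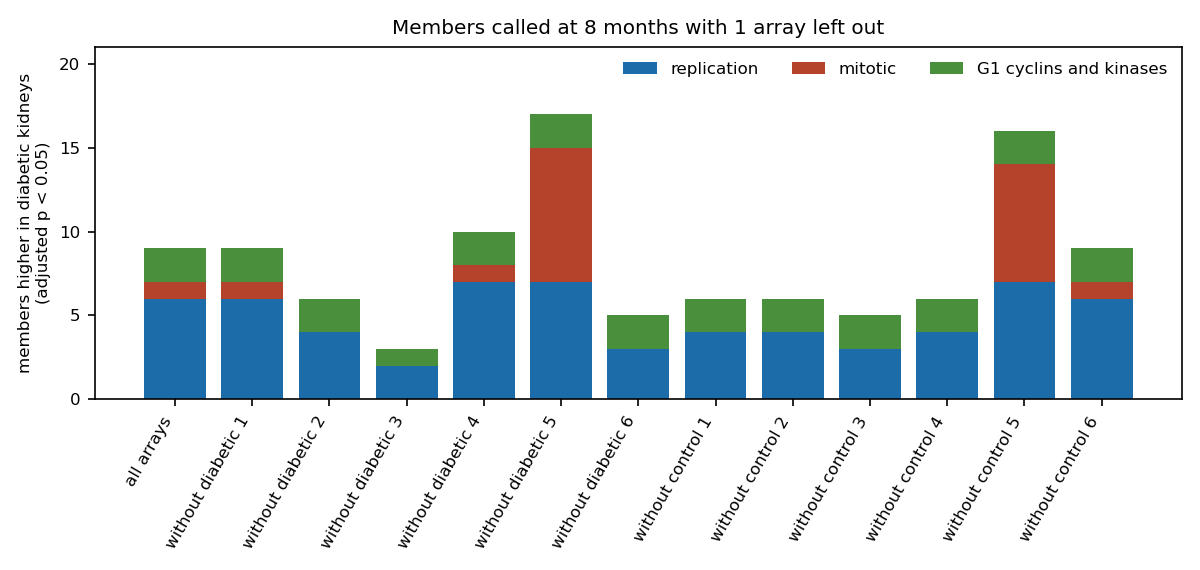
Number of members higher in diabetic kidneys at 8 months (vertical axis, adjusted p under 0.05), coloured by role, with all arrays and with each 8-month array left out in turn (horizontal axis). The count ranges from 3 without diabetic array 3 to 17 without diabetic array 5, and most of the rise in the latter is in mitotic genes.

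Markers of other cells moved with the groups and with some of these arrays. At 8 months 10 of 11 tested macrophage genes were called higher, with a mean log2 level of the list of 7.19 to 7.67 in controls and 8.34 to 9.97 in diabetic kidneys. All 10 tested tubular injury genes were higher (7.98 to 8.33 against 9.20 to 11.04), as were 8 of 10 genes of lymphocytes and plasma cells (6.85 to 7.14 against 7.15 to 8.57) and 5 of 8 fibroblast genes (7.59 to 8.67 against 8.22 to 10.49). Over all tested genes 9.87% were called higher and 6.95% lower at that age. Of the 9 genes that define kidney cell types, 7 were called lower and 1 higher at 8 months, with a median of -0.29, and the list's mean level lay at 12.09 to 12.17 in controls and 11.63 to 12.03 in diabetic kidneys, without overlap. Diabetic array 3 had the highest value of the 4 lists of higher genes and the lowest of the kidney list. Diabetic array 5 had the lowest macrophage, lymphocyte and fibroblast values of its group, and a tubular injury value of 9.63. Control array 5 had values inside the range of the other controls for the macrophage (7.64), lymphocyte (6.95) and fibroblast (8.61) lists. Its tubular injury value of 8.33 was the highest of the controls, and the others lay at 7.98 to 8.22. Of the 3 tested erythroid genes 0 were called higher and 1 lower at 8 months (Klf1, -0.38 ± 0.12), with a median of -0.14. The mean level over these 3 genes was 7.44 to 8.35 in controls, where array 5 was the highest. In diabetic kidneys it was 7.50 to 8.37, and array 5 was the lowest. Within that list, and singled out after its values were seen, Alas2, an enzyme of haem synthesis in red cell precursors, was 9.55 on control array 5 against 6.23 to 7.42 on the other controls, and 7.15 to 9.55 on the diabetic arrays, of which array 5 was the lowest. At 4 months diabetic array 3 had values inside the range of the other diabetic arrays for the macrophage (7.14), lymphocyte (6.36) and tubular injury (8.10) lists. Its fibroblast value of 8.29 was the highest of its group, and the others lay at 7.85 to 8.23. Its Alas2 was 6.80. The part of these cells in the differences of the members was not tested.

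The clock genes Arntl and Dbp, whose messages cycle with the time of day, also differed between arrays of a group. Diabetic array 5 of 8 months had the highest Arntl (7.81) and the lowest Dbp (7.32) of the 12 arrays of that age, and control array 5 had 6.73 and 9.60. Diabetic arrays 1 and 2 of that age had Arntl of 6.97 and 6.73 and Dbp of 8.25 and 8.14. Diabetic arrays 3, 4 and 6 had 5.65, 5.42 and 5.47, and 10.10, 10.51 and 10.64. The 8-month controls had 5.31 to 6.77 and 9.48 to 10.88. At 2 months diabetic arrays 1, 5 and 6 had Arntl of 7.80, 7.88 and 8.28 and Dbp of 9.29, 8.26 and 7.95. Diabetic arrays 2 to 4 had 6.74 to 6.82 and 10.79 to 11.11. Control array 6 of 2 months had 7.66 and 8.87, and control arrays 1 to 5 had 6.52 to 6.63 and 10.14 to 11.62. At 4 months control arrays 3 and 4 had Arntl of 7.84 and 8.17 and Dbp of 8.75 and 8.02. Control arrays 1 and 2 had 6.15 and 6.14, and 10.38 and 10.63. The 4-month diabetic arrays had 5.54 to 6.21 and 10.24 to 11.29. The part of the time of sampling in the members' values was not tested.

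The change of the diabetes effect with age was not called for any member. Between 2 and 8 months 0 of 28 members passed, against 3.89% of all genes, with 4 at an unadjusted p under 0.05 (17.4% of all genes). The smallest adjusted p was that of Ube2c, whose difference was 0.90 higher at 8 than at 2 months (0.27 to 1.53; adjusted p = 0.0975), followed by Ccnd2 at 0.37 (0.08 to 0.66; adjusted p = 0.146). In a fit with the replicate numbers as blocks at all ages, Ube2c had an adjusted p of 0.0494. Without control array 6 of 2 months its change was 1.20, with an adjusted p of 0.00093. From 2 to 4 months 0 members and 0% of all genes passed, with 1 member and 5.08% of genes at an unadjusted p under 0.05. From 4 to 8 months 0 members and 0.877% of genes passed, with 3 members and 12.4% of genes at an unadjusted p under 0.05. Being called at 8 months and not before does not show that a member's difference grew.

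Other probe sets of the called members moved the same way. For 7 of the 9 called genes, 12 further probe sets lay above the filter, all 12 differed in the same direction at 8 months, and 6 were called too. For Mcm3 these were at 0.80 (adjusted p = 0.0342) and 0.49 (0.0678), and for Rrm2 at 0.88 (0.0426) and 0.66 (0.0888). For Ccnd2 they were at 0.49, 0.40 and 0.46 (0.0169, 0.0068 and 0.0214), and for Cdk4 at 0.30 (0.0460) and 0.30 (0.0812). Those of Mcm5 (0.94, 0.0580), Mcm4 (0.41, 0.165) and Rrm1 (0.23, 0.362) were not called. The adjusted p of further probe sets came from a separate limma fit of all probe sets above the filter. In that fit the brightest Mcm4 probe set was not called either (0.0639). The other probe set of Mcm2, which was not called on its brightest, was at 0.75 with an adjusted p of 0.0096. Of 9 dimmer probe sets of the called members, 7 had the same sign.

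Other genes of the cycle, in 3 lists that hold no member, were read from the same fit. Over all tested genes 9.87% were called higher and 6.95% lower at 8 months. Of 32 tested further replication genes, 6 rose and 0 fell at that age, with a median of 0.19. They included Gins2, part of the helicase that the Mcm proteins form at active forks (0.41 ± 0.10; adjusted p = 0.0050). At 2 months 1 of the 32 was called lower, against 1.78% of all genes. This was Gmnn, the gene for the licensing inhibitor geminin, which fell by 0.50 ± 0.14 (adjusted p = 0.0423). None was called at 4 months, when 6 were higher at an unadjusted p under 0.05, against 5.58% of all genes. Of 23 tested further mitosis genes, 4 rose at 8 months and 0 fell, with a median of 0.28, and none was called at 2 or 4 months. At an unadjusted p under 0.05, 2 were higher at each of these younger ages, against 5.54% and 5.58% of all genes. Cks1b, a subunit of cyclin-dependent kinase complexes, rose by 1.06 ± 0.20 (adjusted p = 0.00022), with no overlap between the groups. The other 3, named after their values were seen, were Incenp (0.57), Ncaph (0.49) and Spc24 (0.36). The other Incenp probe sets above the filter were at 0.28 (adjusted p = 0.114) and -0.02 (adjusted p = 0.953), and its dimmer ones at -0.16 and -0.01.

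Of 29 tested further regulators, 7 rose and 2 fell at 8 months, against 9.87% of all genes called higher and 6.95% lower. The inhibitor gene Cdkn1a had the largest difference. Cdkn1a encodes a kinase inhibitor induced by p53 and other stress signals. At 8 months it lay at 6.72 to 7.05 in controls and at 8.36 to 10.19 in diabetic kidneys, a difference of 2.32 ± 0.25 with an adjusted p of 5.1e-08. Its highest value was on diabetic array 5, the array with the lowest level of most members. At 2 months it lay at 7.24 to 7.81 in controls and 8.15 to 10.33 in diabetic kidneys, and it rose by 1.27 ± 0.25 (adjusted p = 0.0032). The highest value was that of diabetic array 1, the array with the highest level of most members. At 4 months the groups did not overlap either (6.75 to 7.84 against 8.02 to 8.39), and the difference of 0.78 ± 0.27 had an adjusted p of 0.199. A dimmer Cdkn1a probe set differed by 1.44 at 8 months (adjusted p = 2.3e-08) and by 0.38 at 2 months (adjusted p = 0.204).

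Myc, a growth-promoting transcription factor gene, rose by 1.00 ± 0.14 at 8 months (adjusted p = 2.1e-06), and Cdk6, the other kinase of D cyclins, by 0.59 ± 0.13 (adjusted p = 0.0020), both without overlap. Tfdp2, which encodes a partner of E2F factors, fell by 0.43 ± 0.09 (adjusted p = 0.0013), but its next brightest probe sets were at 0.07 and 0.07 and were not called. Foxm1, a transcription factor of mitotic genes, fell by 0.20 ± 0.07 (adjusted p = 0.0389), with its other probe sets at -0.13, 0.19 and -0.06. No further regulator was called at 4 months. At an unadjusted p under 0.05, 3 were higher and 0 lower at that age, against 5.58% and 5.78% of all genes.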

How the data were processed

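The deposited values are log2 probe set signals of 35 Affymetrix arrays, as their range of 2.02 to 14.96 shows; per the labels, biotin-labelled cRNA was made from 5 ug of TRIzol-extracted total RNA. How the authors corrected background, summarised probes and normalised is not given in the sources used here, and the mean value differs between ages, so groups were compared within an age. Precision is set by how many arrays a group has and by 1 spread per gene that the 6 groups share. The SEs and intervals therefore do not follow the spread of a single age. Of 45101 probe sets, 34945 name 1 gene and 932 several; the latter were left out. Each gene took its brightest probe set, and genes with a mean under 5.27 (the 40th percentile) were left out. limma 3.58.1 in R 4.3.3 (lmFit and eBayes, two-sided, 6 group means, 29 residual degrees of freedom) gave differences, and p-values were adjusted by Benjamini-Hochberg over 13004 genes. The fit was tested on simulated data with independent arrays and 1 spread per gene in all groups. That test does not cover arrays that differ across many genes at once, or a spread that changes with age.

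The members and lists were chosen with earlier results of these data known. Array values were given for members called in any comparison and for Mki67, Top2a, Pcna, Mcm2, Ccnd1, Cdk4 and Cdkn1b, and further genes were named by smallest p, up to 5 in each direction, with Cdkn1a. Alternatives covered scaling, filters, probe sets, the replicate block, the arrays fitted and leaving out each array. Same-numbered diabetic and control arrays deviated together at 2 months (Pearson r across genes 0.25 to 0.44, 6 of 6 pairs above 0.1). Arrays 5 and 6 of both groups stood apart at that age, and arrays of different numbers were not compared. These values therefore cannot show that the numbers mark pairs, and the labels do not say so. The values and counts reported are those of the fit without a block. The blocked value is given beside a 2-month or between-age result whose call it changes. At 4 months (0.05 to 0.18, 1 of 4) and 8 months (-0.14 to 0.23, 2 of 6) they share only a number. Promoters were RefSeq windows searched for exact letters.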

Additional observations from a re-analysis of the deposited data

Results flagged for a closer look

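In 12 of the 168 combinations of a tested member and a group (7.14%), 1 array lay far from the others by Dixon's test, which chance does in about 1 of 20 groups. Of these, 4 came from diabetic array 3 of 4 months, which was the highest of its group for Mcm2 (9.30, next 8.46), Rrm1 (7.98, next 7.53), Pcna (11.49, next 11.03) and Mki67 (7.54, next 6.60). Its mean over the replication members was 1.36 above the control mean, and the next array's 0.53.

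At 2 months diabetic array 1 was far above its group for Mcm2 (8.50, next 7.93) and Cdk4 (10.32, next 10.05), and diabetic array 5 for Mcm3 (6.20, next 5.97). Control array 6 of 2 months was far below its group for Pcna (10.05, next 10.75) and Ube2c (6.75, next 8.28), and control array 3 was high for Ccnb2 (6.17, next 5.66). Control array 4 of 4 months was high for Ccnd1 (10.85, next 10.46) and in its mean over the mitotic members (0.23, next -0.06), and control array 5 of 8 months for Mcm3 (6.02, next 5.76).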

How the results depend on the processing

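At 8 months, where 9 members were called, 8 were called after quantile normalization over all arrays or within ages, without the filter, with the mean of all probe sets, with the replicate block and with the 8-month arrays alone, and 6 with a stricter filter; 6 to 8 of these were among the 9. Leaving out 1 array gave 3 to 17. Without pairing at that age, the replicate block left Mki67 (adjusted p = 0.0744) and Mcm4 (0.0539) uncalled and called Ube2c (0.0427). At 2 months, where 0 were called, 1 was called after either quantile normalization, with the replicate block, with a term for arrays 5 and 6 (Ccnd1 in each) and with the 2-month arrays alone (Mcm6), and leaving out 1 array gave 0 to 1; the block changed no other member's call at 2 months. At 4 months the count was 0 in every alternative run, 0 to 0 when 1 array was left out. Between ages, where 0 were called, 1 was called with the mean of all probe sets (Ccnd2) and with the replicate block (Ube2c), and 0 to 1 when 1 array was left out. The replication minus mitotic median ranged from -0.19 to -0.01 at 2 months, from -0.24 to -0.05 at 4 months and from -0.18 to 0.01 at 8 months with 1 array left out. No called member changed direction. The cause of these changes was not tested.

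Over all genes, the 330 calls at 2 months became 553 with the replicate block, 64 in the 2-month arrays alone, 696 with a term for arrays 5 and 6 and 571 in those arrays alone. The 126 calls at 4 months became 358 in the 4-month arrays alone and 5 without control arrays 3 and 4. Leaving out 1 array moved the 330 to 515 (diabetic 2), 512 (control 5), 219 (control 1) or 192 (control 2), and the 126 to 78 (diabetic 5), 36 (control 3) or 29 (control 4), so the shares of all genes called at these ages move as well. Dim members near background have little power, and groups of 4 to 7 arrays limit what small differences can be called.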
